A study of Mus musculus with 18 samples.

Results

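Livers of mice that ate a perfluorinated compound were compared with livers of mice that ate none over 2 diets. The exposed side held the 12 samples whose titles name perfluorooctane sulfonate (PFOS) or perfluorononanoic acid (PFNA), and the other side the 6 samples without a compound. All 18 samples of the series entered the comparison, with diet as an additive factor, so that each exposed liver was read against controls of its own diet. All mice were C57BL6 males, and each sample was total liver RNA on 1 microarray. The low-fat diet gave 10% of its energy as fat and the high-fat diet 45%. The diets were fed freely for 12 weeks, from 6 to 18 weeks of age, and each diet had 3 mice with PFOS in the diet, 3 with PFNA and 3 with neither. Replicates are labelled as biological. The sources used here do not give the doses of PFOS and PFNA, nor the hour and feeding state at sacrifice.

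PFOS and PFNA are persistent surfactants with fully fluorinated carbon chains. PFOS ends in a sulfonic acid group and PFNA in a carboxylic acid group. In liver such compounds are known to act on nuclear receptors. The constitutive androstane receptor (CAR) and the pregnane X receptor (PXR) switch on cytochrome P450, conjugation and transport genes for foreign compounds, and the peroxisome proliferator-activated receptor alpha (PPARA) switches on fatty acid oxidation and lipid handling genes.

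Levels are given as the deposited log2 signal of a probe, and a difference is the fitted log2 level of exposed livers minus that of livers without a compound. A gene with several probes is represented by the probe with the brightest mean signal. A probe or gene was called where the adjusted p was under 0.05 in limma with Benjamini-Hochberg adjustment over all 34472 probes. Array medians lay between 4.43 and 4.59, and pairs of arrays correlated at 0.975 to 0.991. The mean level of 10 hepatocyte markers, albumin among them, was 11.53 to 11.79 on all arrays, far above the array medians, as a liver sample should give. The first principal component, 17.9% of the variance, was high in the 3 high-fat PFOS livers, in low-fat PFOS replicate 3 and in high-fat PFNA replicate 3, at 27.8 to 38.6, and lay between -22.9 and -8.1 in the other 13 samples. Low-fat PFOS replicate 3 and high-fat PFNA replicate 3 thus stood apart from their groups, and counts are given below with and without them. The second component, 14.4% of the variance, separated exposure itself: the 6 livers without a compound lay between 18.1 and 27.9 and the 12 exposed livers between -26.5 and 7.3.

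Exposure changed 1691 probes, 4.91% of those tested, with 999 higher (2.90%) and 692 lower (2.01%). In genes with a probe of their own this was 1197 of 22180 genes (5.40%), 849 of them higher (3.83%) and 348 lower (1.57%). These gene shares are the background for every count of list members below. Most changes were small, with a median size of 0.44 on the log2 scale among called probes. Beyond a 2-fold difference there were 53 probes higher and 83 lower, and beyond 4-fold 7 higher and 6 lower. In genes with a symbol of their own these counts were 44 and 19, then 6 and 0, so most of the larger falls lay in probes that carry no single gene symbol. Calls were not spread evenly over signal: the 8617 brightest probes held 751 rises and 346 falls, and the 8618 dimmest held 16 rises and 48 falls. A list of bright genes therefore has a higher background than the share of all genes. The share of called probes that were higher moved with the scaling of the arrays: it was 59.1% on the deposited values, 52.4% after quantile normalization (830 higher, 754 lower) and 77.6% after centring each array on its median (1561 higher, 452 lower). Without low-fat PFOS replicate 3 and high-fat PFNA replicate 3 there were 1642 called probes, 1366 of them shared with the full set.

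**Figure D1:**
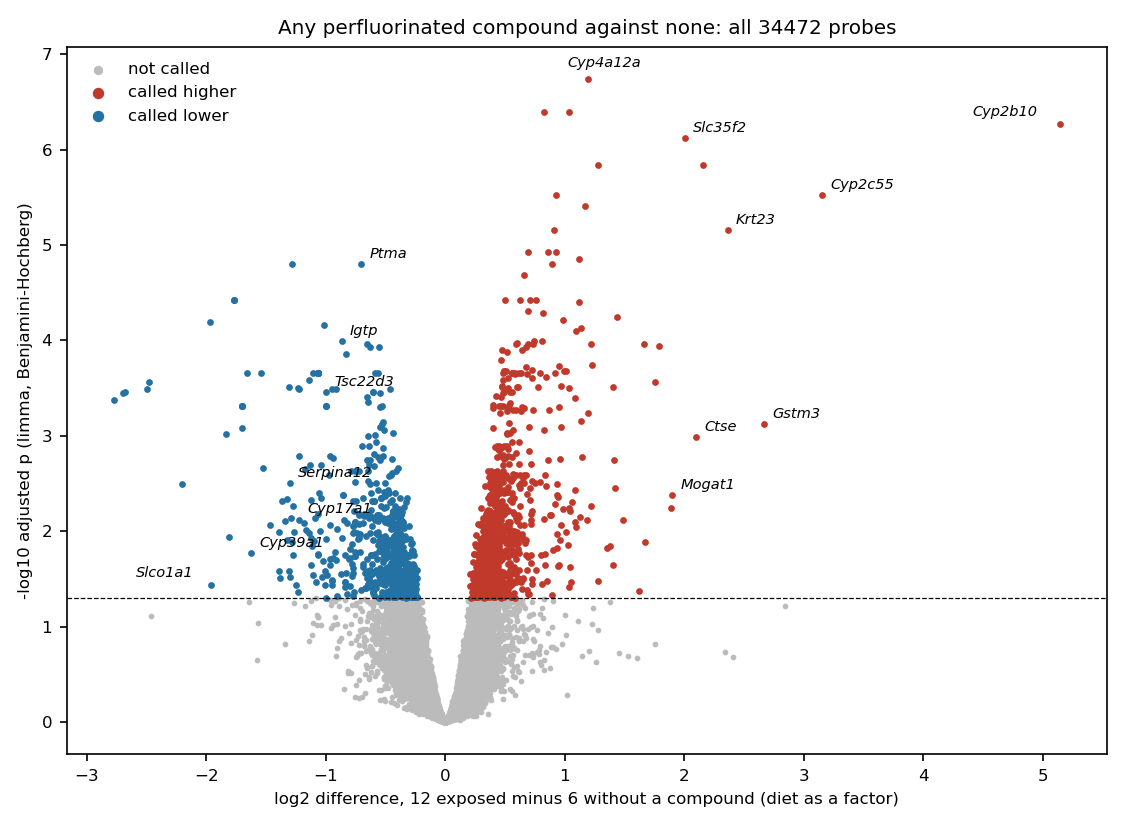
Log2 difference between 12 exposed livers and 6 without a compound (x axis) against -log10 of the limma adjusted p (y axis) for all 34472 probes, with called probes in colour and the 0.05 threshold as a dashed line. Cyp2b10 lies farthest to the right at 5.14, Cyp4a12a has the smallest adjusted p, and the leftmost called points are probes without a gene symbol.

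In 214 genes (0.965%) all 12 exposed livers lay above all 6 others, and in 56 genes (0.252%) all 12 lay below. Over probes these counts were 253 (0.734%) and 110 (0.319%), and they moved to 203 and 166 after quantile normalization and to 366 and 67 after centring on the median.

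The genes with the largest rises were cytochrome P450 genes used as readouts of CAR. Cyp2b10, the classic CAR target, had a level of 3.81 to 4.58 in the 6 livers without a compound (median 4.05) and of 7.26 to 10.63 in the 12 exposed livers (median 9.52). The groups did not overlap, and the difference was 5.14 (SE 0.41, limma adjusted p = 5.38e-07). The lowest exposed values were 7.26 in high-fat PFOS replicate 1, 7.70 in high-fat PFNA replicate 3 and 7.94 in low-fat PFOS replicate 3. Cyp2c55, a P450 of the Cyp2c family also induced through CAR and PXR, lay between 3.87 and 4.90 without a compound (median 4.63) and between 6.44 and 8.55 with one (median 7.55), a difference of 3.15 (SE 0.29, adjusted p = 3.01e-06). Here too no exposed liver overlapped a control. A dimmer second probe for Cyp2c55, with a mean level of 5.28, differed by 0.04 (adjusted p = 0.939), so the rise rests on the brighter probe. The unexposed levels of Cyp2b10 and Cyp2c55 lie near the median of all probes, 4.48, where a signal is not shown to stand above background, so no fold of RNA is given for them.

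**Figure D2:**
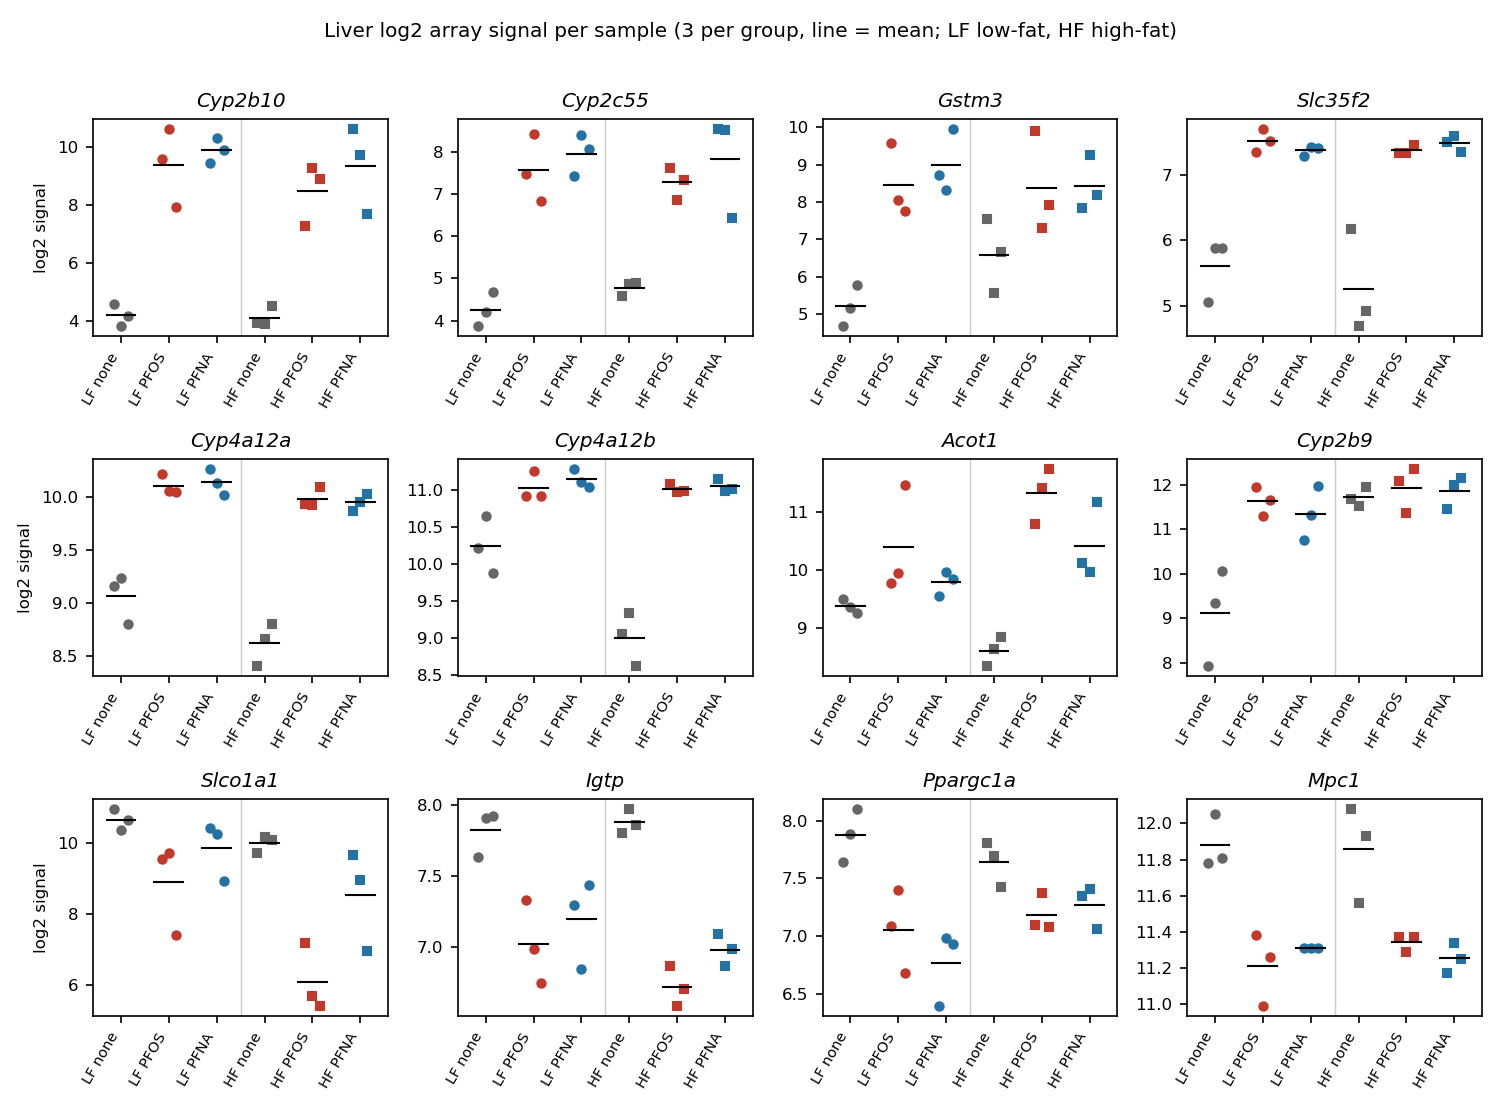
Log2 array signal of 12 genes in each of the 18 livers, with 3 points per group and the group mean as a line; low-fat groups are circles and high-fat groups squares. The 12 exposed points lie clear of the 6 grey control points for Cyp2b10, Cyp2c55, Slc35f2, Cyp4a12a, Cyp4a12b, Acot1, Igtp, Ppargc1a and Mpc1, and overlap them for Gstm3, Cyp2b9 and Slco1a1.

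Of 20 measured CAR and PXR target genes, 7 rose and 0 fell, against 3.83% and 1.57% of all genes, and the median difference was 0.41, against -0.01 over all probes. By exposure the median was 0.57 in low-fat PFOS, 0.66 in low-fat PFNA, 0.01 in high-fat PFOS and 0.32 in high-fat PFNA. Over the alternatives run 5 to 8 of the CAR and PXR targets rose and 0 or 1 fell. The settings with 1 fall included quantile normalization, the signal filter, and the fits without low-fat control 1 or without low-fat PFOS replicate 1. Cyp3a11, the main PXR-responsive P450 of mouse liver, rose from 9.56 to 10.40 in controls to 10.74 to 11.51 in exposed livers, without overlap. Its difference was 1.14 (SE 0.14, adjusted p = 7.34e-05). Probes that match Cyp3a11 together with Cyp3a41 and Cyp3a44 differed by 0.91 and 0.93, so cross-hybridisation among these near-identical genes cannot be told apart from the rise of one of them. Cyp3a44 itself, with unexposed levels of 3.61 to 5.09 around the median of all probes, differed by 1.66 (SE 0.21, adjusted p = 0.000109).

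Cyp2b9, a P450 that female livers express more than male, lay between 7.93 and 11.96 without a compound and between 10.76 and 12.36 with one. The 3 high-fat controls, at 11.52 to 11.96, lay inside the exposed range, and the 3 low-fat controls, at 7.93 to 10.07, lay below it. The pooled difference was 1.28 (SE 0.34, adjusted p = 0.033). The call was lost when low-fat control 1, 2 or 3, low-fat PFOS replicate 1 or low-fat PFNA replicate 3 was left out, with adjusted p up to 0.0884. Gadd45b, a stress and growth gene induced through CAR, rose by 0.95 (SE 0.23, adjusted p = 0.0225), a call lost without low-fat control 2 or high-fat control 3 (adjusted p up to 0.0592).

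Within the Cyp2c family the members, chosen for naming after their values were seen, did not move as one. Cyp2c29 rose by 0.78 (SE 0.11, adjusted p = 0.00031) with all 12 exposed livers above all controls, from a median of 12.57 to 13.30. Cyp2c54 differed by 0.40 (adjusted p = 0.441), Cyp2c50 by 0.29 (adjusted p = 0.391), Cyp2c37 by -0.11 (adjusted p = 0.906), Cyp2c39 by -0.22 (adjusted p = 0.67) and Cyp2c38 by -0.66 (adjusted p = 0.0541). The Cyp2c37 value is a mean over unlike livers: 7 exposed livers lay above every control of their diet and 5 below. Those 5, at 9.12 to 10.65, were all high-fat PFOS livers, low-fat PFOS replicate 3 and high-fat PFNA replicate 3. The other 7 lay at 11.39 to 11.90 and the controls at 10.77 to 11.18. Only the rises of Cyp2c29 and of the brighter Cyp2c55 probe passed the test among these 7 Cyp2c genes.

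Of 14 regulators of the CAR and PXR system, 1 rose and 2 fell. Nr1i2, which encodes PXR, rose by 0.37 (SE 0.10, adjusted p = 0.0267), Rxra, the shared dimer partner, fell by 0.32 (adjusted p = 0.03), and Ahr, the dioxin receptor, fell by 0.64 (adjusted p = 0.0364). Each of the 3 calls was lost with single samples left out: Nr1i2 without low-fat control 3 or high-fat control 1 or 3, Rxra without low-fat control 1 or 3 or high-fat control 1 or 2, and Ahr without low-fat control 3, any high-fat control, high-fat PFOS replicate 1 or 3 or high-fat PFNA replicate 3. Nr1i3, which encodes CAR, differed by -0.11 (adjusted p = 0.711) and Ppara by -0.07 (adjusted p = 0.632). Of 7 targets of the dioxin receptor, 1 was called, Nqo1, while Cyp1a1 differed by 0.10 (adjusted p = 0.655) and Cyp1a2 by 0.07 (adjusted p = 0.891).

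Of 18 measured glutathione S-transferases, which couple glutathione to reactive compounds, 7 rose and 0 fell, with a median difference of 0.33. Gstm3 had levels of 4.68 to 7.54 without a compound (median 5.67) and 7.30 to 9.95 with one (median 8.26), a difference of 2.67 (SE 0.42, adjusted p = 0.000748). High-fat control 1, at 7.54, overlapped the lowest exposed liver, and 11 of 12 exposed livers lay above every control of their diet. Gstt3 rose by 1.42 (SE 0.27, adjusted p = 0.00353). Gsta4, which detoxifies lipid peroxidation products, rose by 0.95 (SE 0.13, adjusted p = 0.000183), and in both genes 11 of 12 exposed livers lay above every control of their diet. Gstt2 rose by 0.72 (adjusted p = 0.00761) with no overlap between exposed livers, at 8.07 to 9.14, and controls, at 7.72 to 8.03. A probe shared by Gsta1, Gsta2 and near-identical copies rose by 1.15 (adjusted p = 0.00166), while a second shared probe differed by 0.03 (adjusted p = 0.957), so which of these copies moved cannot be read from the array.

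Of 21 measured targets of NRF2, the sensor of oxidative and electrophilic stress, 3 rose and 0 fell. Ephx1, the microsomal epoxide hydrolase, rose from a median of 10.64 to 11.31 without overlap, by 0.62 (SE 0.07, adjusted p = 3.74e-05). Nqo1, a quinone reductase, rose by 0.75 (adjusted p = 0.0031) and Txn1, thioredoxin, by 0.38 (adjusted p = 0.0144). Hmox1, heme oxygenase, differed by 0.19 (SE 0.22, adjusted p = 0.698) and Gclc, which makes glutathione, by 0.16 (SE 0.10, adjusted p = 0.423). Conjugation by glucuronic acid and sulfate gave 0 calls among 18 genes. Its largest differences were -0.52 in Sult1a1, a phenol sulfotransferase (adjusted p = 0.18), and -0.35 in Ugt2b1, a glucuronosyltransferase (adjusted p = 0.479).

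Of 21 measured carboxylesterases and aldehyde dehydrogenases 6 rose and 0 fell, and in 5 of these the exposed livers lay above all controls. Ces2a, a carboxylesterase, rose from a median of 9.62 to 10.62, by 0.95 (SE 0.14, adjusted p = 0.000503). Ces1e rose by 0.59 (adjusted p = 0.000224), from 9.30 to 9.74 in controls to 9.85 to 10.31 in exposed livers. Ces2e rose by 0.88 (adjusted p = 0.00683), with 10 of 12 exposed livers above and 1 below every control of its diet. Aldh3a2, the fatty aldehyde dehydrogenase, rose by 0.53 (adjusted p = 0.0115) on its brighter probe, while a second probe with a mean level of 7.84 differed by 0.14 (adjusted p = 0.772).

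Among 25 transporters 5 rose and 1 fell. The risers were export pumps and a carnitine carrier: Abcc3, which pumps conjugates from the hepatocyte to blood, rose by 0.64 (SE 0.10, adjusted p = 0.000547), from 9.83 to 10.75 in controls to 10.90 to 11.17 in exposed livers. Abcg2, an efflux pump for foreign compounds, rose by 0.73 (adjusted p = 0.0062), and Slc22a5, the carnitine transporter, by 0.67 (adjusted p = 0.0127). The fall was in Slco1a1, a male-predominant uptake carrier for organic anions and steroid conjugates. Slco1a1 lay between 9.70 and 10.94 without a compound (median 10.25) and between 5.43 and 10.42 with one (median 8.94), a difference of -1.96 (SE 0.53, adjusted p = 0.0366). Its lowest values were the 3 high-fat PFOS livers, at 5.43, 5.70 and 7.19, then 6.97 in high-fat PFNA replicate 3 and 7.41 in low-fat PFOS replicate 3. The other 7 exposed livers lay between 8.92 and 10.42. The call was lost with any of 8 samples left out, namely low-fat control 1 or 3, each high-fat control, low-fat PFNA replicate 3, high-fat PFOS replicate 1 and high-fat PFNA replicate 3 (adjusted p up to 0.0895).

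Of 9 measured genes of microsomal omega-oxidation, which hydroxylates the end of a fatty acid, 4 rose and 0 fell, with a median difference of 0.51. Cyp4a12a, a male-predominant arachidonic acid hydroxylase, had the smallest adjusted p of all probes. It lay between 8.41 and 9.24 in livers without a compound (median 8.80) and between 9.87 and 10.26 in exposed livers (median 10.04). The groups did not overlap, and the difference was 1.20 (SE 0.08, adjusted p = 1.82e-07). Cyp4a12b, its neighbour, reached 10.91 to 11.28 in all 12 exposed livers, while controls lay at 9.87 to 10.65 on the low-fat and 8.62 to 9.33 on the high-fat diet, a pooled difference of 1.44 (SE 0.17, adjusted p = 5.67e-05). Cyp4f15 rose by 0.72 (adjusted p = 0.000245). Cyp4a14, an established PPARA target, rose by 0.46 (SE 0.10, adjusted p = 0.00768) from an already bright median of 12.82. Cyp4a10 has no probe of its own: a probe shared with Cyp4a32 rose by 1.03 (adjusted p = 0.0387) and one shared with Cyp4a31 differed by 0.29 (adjusted p = 0.0997).

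Genes known as PPARA targets split into a few that rose in nearly every exposed liver and others that were high in the same 5 livers. Acot1, a cytosolic acyl-CoA thioesterase, lay between 8.35 and 9.51 without a compound (median 9.06) and between 9.55 and 11.74 with one (median 10.04), without overlap. Its difference was 1.48 (SE 0.31, adjusted p = 0.00761). Acot2, the mitochondrial thioesterase, lay between 10.25 and 10.61 without a compound and between 10.43 and 13.41 with one, a difference of 1.41 (SE 0.35, adjusted p = 0.0225). Its 5 highest livers, at 12.85 to 13.41, were the 3 high-fat PFOS livers, low-fat PFOS replicate 3 and high-fat PFNA replicate 3, and its call was lost without any 1 of the 3 high-fat controls (adjusted p up to 0.0651).

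In the same 5 livers Cidea, a lipid droplet protein that PPARA agonists induce, was at 9.94 to 11.02, while the other 7 exposed livers lay at 4.37 to 5.34 and the controls at 4.07 to 7.89. The pooled difference in Cidea of 2.41 (SE 1.04) did not pass the test (adjusted p = 0.21). Ehhadh, the peroxisomal bifunctional enzyme, was at 12.91 to 13.26 in these 5 livers and at 11.05 to 11.70 in all others, with a pooled difference of 0.90 (adjusted p = 0.101). Pdk4, which restrains glucose oxidation, was at 10.13 to 11.21 in these 5 and at 6.50 to 7.83 in the other 13, with a pooled difference of 1.45 (adjusted p = 0.19). Fabp4, a fatty acid binding protein, was at 8.73 to 9.36 in the 5 and at most 7.10 elsewhere, with a pooled difference of 1.27 (adjusted p = 0.108). For these genes, named after their values were seen, the pooled difference is therefore a mean over exposed livers of unlike level.

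By list, 2 of 22 genes of peroxisomal fatty acid oxidation rose and 0 fell. These were Acot3, a peroxisomal thioesterase, by 0.94 (adjusted p = 0.00317) and Acaa1b, a peroxisomal thiolase, by 0.56 (adjusted p = 0.00394), the latter with all 12 exposed livers above all controls. Of 20 genes of mitochondrial fatty acid oxidation 5 rose and 0 fell, among them Slc25a20, the carnitine-acylcarnitine carrier, by 0.52 (SE 0.08, adjusted p = 0.000551) and without overlap. Acadl, an acyl-CoA dehydrogenase, differed by 0.38 (adjusted p = 0.0487), a call lost with any of 14 of the 18 samples left out. Of 27 genes of ketogenesis and other PPARA outputs 5 rose and 0 fell. Slc27a1, a fatty acid transport protein, rose by 1.67 (SE 0.38, adjusted p = 0.0129), with exposed livers at 7.06 to 10.21 and controls at 6.71 to 7.05. Cd36, a fatty acid translocase, rose by 1.04 (SE 0.21, adjusted p = 0.00568). Cidec, a lipid droplet fusion protein, differed by 1.62 (SE 0.45, adjusted p = 0.0428), with high-fat control 1 at 9.07 inside the exposed range of 7.31 to 10.49, and its call was lost with any of 12 samples left out. Without low-fat PFOS replicate 3 and high-fat PFNA replicate 3, 3 mitochondrial genes and 3 genes of the ketogenesis list rose. Cpt1a, Fgf21 and Plin2, members named after their values were seen, differed by -0.06 (adjusted p = 0.74), -0.31 (adjusted p = 0.651) and 0.12 (adjusted p = 0.777). The letters of the PPARA element, AGGTCA, any 1 base and AGGTCA again, were searched on both strands from 250 bases before to 50 bases after the start in RefSeq (GRCm38.p6). They were in 11 of 16990 genes (0.0647%) and in 0 of 62 from the 4 fatty acid and PPARA lists. With letters this rare, 0 of 62 was near certain beforehand and cannot show whether these genes hold the element. Variants of the letters and sites outside the window were not searched.

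Some genes of lipid synthesis and release also rose. Of 28 genes of fatty acid and triglyceride synthesis 5 rose and 0 fell, with a median difference of 0.20. Mogat1, which makes diacylglycerol, lay between 4.56 and 5.14 without a compound and between 5.52 and 8.25 with one, a difference of 1.90 (SE 0.36, adjusted p = 0.00417), its unexposed levels lying near the median of all probes, where a signal is not shown to stand above background. Srebf1, the master regulator of lipogenesis, rose by 0.97 (SE 0.15, adjusted p = 0.00081), and each of the 12 exposed livers lay above every control of its diet. Thrsp, a lipogenic nuclear protein, rose by 1.19 (adjusted p = 0.00761) and Mid1ip1, its partner, by 0.99 (adjusted p = 0.000207). Fasn, fatty acid synthase, differed by 0.78 (SE 0.33, adjusted p = 0.195) and Scd1, the stearoyl-CoA desaturase, by 0.18 (SE 0.13, adjusted p = 0.51), both named after their values were seen. Other probes of Mid1ip1, dimmer, differed by 0.01 and 0.07.

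Of 14 genes of lipolysis and lipid droplets 3 rose and 0 fell. Pnpla2, the adipose triglyceride lipase, rose from a median of 8.94 to 9.83, by 0.89 (SE 0.09, adjusted p = 1.6e-05). Lipe, the hormone-sensitive lipase, rose from 5.86 to 6.31 in controls to 6.59 to 6.85 in exposed livers, by 0.69 (SE 0.07, adjusted p = 1.17e-05). In both, all 12 exposed livers lay above all 6 others. Hsd17b11, a lipid droplet dehydrogenase, rose by 0.94 (adjusted p = 0.015).

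Of 19 genes of cholesterol synthesis and uptake 3 rose and 0 fell: Lss, lanosterol synthase, by 0.61 (adjusted p = 0.0154), Tm7sf2 by 0.39 (adjusted p = 0.0308) and Ebp by 0.37 (adjusted p = 0.0162), the last 2 enzymes being later steps to cholesterol. The call of Tm7sf2 was lost without low-fat control 2 or 3 or high-fat control 1, and that of Ebp without high-fat control 1 (adjusted p up to 0.0891 and 0.0509). Of 15 bile acid synthesis genes 0 rose and 1 fell. Cyp39a1, an oxysterol hydroxylase, lay between 6.54 and 8.0 without a compound (median 7.32) and between 4.17 and 6.83 with one (median 5.84), a fall of 1.62 (SE 0.38, adjusted p = 0.0169, or 0.0507 without high-fat control 1). Cyp7a1, the rate-limiting enzyme of bile acid synthesis, ranged from 6.43 to 10.79 in exposed livers and from 9.11 to 11.40 in controls, and its difference of -1.34 (SE 0.52) did not pass (adjusted p = 0.153).

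Of 19 apolipoproteins and lipoprotein remodelling genes 1 rose and 4 fell. Pltp, the phospholipid transfer protein, rose from a median of 9.60 to 11.23, by 1.41 (SE 0.20, adjusted p = 0.000306). Apof fell by 0.50 (SE 0.10, adjusted p = 0.00426) and Apoa1, the main protein of high-density lipoprotein, by 0.28 (SE 0.07, adjusted p = 0.0156), both with all exposed livers below all controls. Apom fell by 0.47 (SE 0.08, adjusted p = 0.00265). Apoa4 fell by 0.96 (SE 0.24, adjusted p = 0.0224), a call lost without low-fat control 2, high-fat control 1 or high-fat control 3 (adjusted p up to 0.065).

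In glucose metabolism 2 of 18 genes rose and 3 fell. Ppargc1a, the coactivator that drives gluconeogenesis and mitochondrial genes, lay between 7.43 and 8.10 without a compound (median 7.75) and between 6.40 and 7.41 with one (median 7.08). It fell by 0.69 (SE 0.13, adjusted p = 0.00452), with no overlap. Ldha, lactate dehydrogenase, fell by 0.47 (adjusted p = 0.00493). Pck1, the gluconeogenic carboxykinase, fell by 0.59 (adjusted p = 0.0339) and Pdk2, a pyruvate dehydrogenase kinase, rose by 0.51 (adjusted p = 0.035). Both calls were lost on leaving out single samples, Pck1 with any of 6, namely each low-fat control, low-fat PFOS replicate 1, low-fat PFNA replicate 1 and high-fat control 2, and Pdk2 with any of 10. Mpc1, a subunit of the mitochondrial pyruvate carrier outside this list, lay at 11.56 to 12.08 in controls and at 10.99 to 11.38 in exposed livers, a fall of 0.59 (SE 0.08, adjusted p = 0.000221). A dimmer probe of Mpc1 differed by -0.16 (adjusted p = 0.182). Among 20 genes of ureagenesis and amino acid breakdown 0 were called, with Ass1 differing by -0.41 (adjusted p = 0.197) and Tat by -0.35 (adjusted p = 0.122).

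Genes with a sex-dependent level in mouse liver, which growth hormone pulses set, did not move one way. Of 16 male-predominant genes 2 rose, Cyp4a12a and Hsd17b2, and 2 fell, Slco1a1 and Serpina1e. Serpina1e, a serum protease inhibitor, fell by 1.07 (SE 0.22, adjusted p = 0.00656). Hsd17b2, a steroid dehydrogenase, rose by 0.36 (adjusted p = 0.0307), a call lost without any low-fat control or high-fat control 1 (adjusted p up to 0.0896). Hsd3b5, a male-predominant steroid enzyme named after its values were seen, ranged from 2.39 to 9.15 in exposed livers and from 7.43 to 8.78 in controls, with a difference of -2.46 (SE 0.79, adjusted p = 0.0775). Of 17 female-predominant genes 3 rose, Cyp2b9, Cyp3a44 and Acot3, and 1 fell, Cyp17a1. Cyp17a1, a steroid hydroxylase, lay between 7.15 and 8.81 without a compound (median 8.43) and between 5.86 and 7.47 with one (median 6.91), a difference of -1.23 (SE 0.25, adjusted p = 0.00756). Mup21, a major urinary protein gene, fell by 1.17 (SE 0.21, adjusted p = 0.00221) with all 12 exposed livers, at 5.05 to 6.95, below all controls, at 7.20 to 7.90. Of the 9 regulators of this pattern 0 were called, with Onecut1 differing by 0.60 (adjusted p = 0.257) and Bcl6 by -0.51 (adjusted p = 0.436).

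Of 21 measured interferon-stimulated genes 5 fell, 1 rose and 15 did not pass the test, against falls in 1.57% and rises in 3.83% of all genes. The list's median difference was -0.30, and by exposure it was -0.16 in low-fat PFOS, 0.02 in low-fat PFNA, -0.71 in high-fat PFOS and -0.47 in high-fat PFNA. These genes are switched on by interferon through STAT and IRF proteins that bind a short promoter element. Igtp, an immunity-related GTPase, lay at 7.63 to 7.97 in all 6 controls and at 6.59 to 7.44 in all 12 exposed livers. It fell by 0.87 (SE 0.11, adjusted p = 0.000102), and the groups did not overlap. Irgm1, a GTPase of the same family, fell by 0.69 (SE 0.12, adjusted p = 0.00127), Rsad2, the antiviral protein viperin, by 0.76 (SE 0.18, adjusted p = 0.0166) and Ifit1, an antiviral RNA-binding protein, by 0.94 (SE 0.25, adjusted p = 0.0329). The call of Rsad2 was lost without low-fat control 3 (adjusted p = 0.0552), and that of Ifit1 without any of 6 samples, namely low-fat control 2 or 3, each high-fat control and low-fat PFNA replicate 2 (up to 0.0826). The fifth fall was Mx1, at -0.49 (adjusted p = 0.0119) and at levels of 2.67 to 3.93, below the median of all probes. Bst2, the antiviral membrane protein tetherin, named with Mx1 after its values were seen, rose by 0.42 (SE 0.09, adjusted p = 0.00622), with all 12 exposed livers above all 6 others.

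The promoters of these genes were searched for the letters of that element. A window from 250 bases before to 50 bases after the start was taken from RefSeq (GRCm38.p6) for 16990 of the 22180 genes, and both strands were searched for GAAA, any 2 bases and GAAA again, the core of the interferon-stimulated response element. The letters were present in 3.87% of all windows, in 10 of the 15 list members with a window (66.7%), in 6.17% of windows of genes called lower and in 3.06% of windows of genes called higher. Below, 120 bases on the strand of the gene are shown 5′ to 3′ for 4 genes that fell and for Bst2, which rose. Matching letters on either strand are in capitals. Only called members that hold the letters were taken, so their sharing of the letters follows from the choice. Mx1, which also fell, has no window. Gbp3, Gbp7, Ifit3, Isg15 and Oas1g hold the letters too but were not called. The windows are chr19:34640769-34640888 (plus strand) for Ifit1, chr12:26456473-26456592 (minus) for Rsad2, chr11:58199436-58199555 (plus) for Igtp, chr11:48871421-48871540 (minus) for Irgm1 and chr8:71537497-71537616 (minus) for Bst2.
Ifit1: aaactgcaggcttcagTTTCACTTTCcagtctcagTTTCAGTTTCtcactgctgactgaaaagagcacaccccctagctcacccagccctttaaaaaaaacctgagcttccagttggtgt
Rsad2: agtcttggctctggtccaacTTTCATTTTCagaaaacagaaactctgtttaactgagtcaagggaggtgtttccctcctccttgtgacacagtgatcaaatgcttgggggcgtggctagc
Igtp: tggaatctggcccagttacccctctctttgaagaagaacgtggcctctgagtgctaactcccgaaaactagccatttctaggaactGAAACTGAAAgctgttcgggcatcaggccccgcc
Irgm1: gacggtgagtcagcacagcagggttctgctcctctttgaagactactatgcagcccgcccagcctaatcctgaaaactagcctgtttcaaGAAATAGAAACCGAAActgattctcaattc
Bst2: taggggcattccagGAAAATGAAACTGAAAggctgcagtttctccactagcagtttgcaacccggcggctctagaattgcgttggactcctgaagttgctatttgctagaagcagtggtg
In Ifit1 and Rsad2 the matches lie on the opposite strand, which reads as TTTC, 2 bases and TTTC, and in Igtp, Irgm1 and Bst2 on the strand of the gene. In Irgm1 and Bst2 overlapping matches form 1 longer run. The letters are present in the gene that rose as in the genes shown that fell. A match of letters is a description of the window, not evidence of binding.

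Chaperone, acute-phase and complement genes had pooled medians below 0, and few of them passed the test. Of 22 endoplasmic reticulum stress genes 0 rose and 3 fell, with a median difference of -0.33. By exposure the median was -0.05 in low-fat PFOS, -0.06 in low-fat PFNA, -0.48 in high-fat PFOS and -0.42 in high-fat PFNA. Dnajc3, a chaperone partner, fell by 0.43 (SE 0.09, adjusted p = 0.00674), Herpud1 by 0.43 (adjusted p = 0.0204) and Calr, calreticulin, by 0.34 (adjusted p = 0.0313). The calls of Herpud1 and Calr were lost without low-fat control 3, high-fat control 2 or high-fat control 3 (adjusted p up to 0.0616 and 0.0907). Hspa5, the central chaperone of this response, differed by -0.43 (adjusted p = 0.222). The endoplasmic reticulum stress element, CCAAT, any 9 bases and CCACG, was present on either strand in 0.171% of all windows and in 7 of the 20 list members with a window, Calr and Dnajc3 among them. Of 22 acute-phase genes 1 fell, Fgl1, by 1.0 (SE 0.29, adjusted p = 0.0498), a call lost with any of 15 samples left out, and the list's median was -0.27. By exposure it was 0.05 and 0.00 in low-fat PFOS and PFNA and -0.67 and -0.54 in high-fat PFOS and PFNA. Of 25 complement and coagulation genes 2 fell, Mbl1, a mannose-binding lectin, by 0.58 (SE 0.10, adjusted p = 0.00115) and Fga, a fibrinogen chain, by 0.27 (adjusted p = 0.0474), the latter lost with any of 15 samples left out. In that list 1 of 25 genes had a difference above 0, and the median was -0.17, against -0.01 over all probes. By exposure the list's median was -0.15, -0.05, -0.41 and -0.16 in the same 4 exposures. Whether these medians differ between the diets was not tested.

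Among immediate-early genes, which respond within minutes to stimuli, 0 of 15 were called, with a median difference of -0.30. Egr1 ranged from 4.59 to 5.78 in exposed livers and from 5.22 to 6.39 in controls, and differed by -0.58 (SE 0.17, adjusted p = 0.0544). Immediate-early genes gave 0 or 1 rise and 0 to 3 falls over the alternatives run, with 1 rise and 2 falls under quantile normalization, 1 rise and 3 falls under the signal filter and 3 falls without low-fat PFOS replicate 3.

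Outside the lists the largest rises were in genes of varied function. Krt23, a keratin, lay at 5.30 to 6.25 without a compound and at 7.53 to 8.94 with one, a rise of 2.36 (SE 0.23, adjusted p = 6.96e-06). Slc35f2, a solute carrier of the plasma membrane, lay at 4.69 to 6.17 without a compound and in a narrow band of 7.29 to 7.70 in all 12 exposed livers, a rise of 2.01 (SE 0.17, adjusted p = 7.5e-07). Ctse, the protease cathepsin E, lay at 4.33 to 4.99 without a compound and at 5.28 to 8.22 with one, a rise of 2.10 (SE 0.34, adjusted p = 0.00104). The unexposed levels of Ctse lie near the median of all probes, so the difference may understate its change. None of these 3 genes overlapped between the groups. Serpinb1a, a protease inhibitor, rose by 1.79 (SE 0.23, adjusted p = 0.000115) and Zfp992, a zinc finger gene, by 1.76 (SE 0.25, adjusted p = 0.000271), again without overlap.

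Several genes with very small p-values, named after their values were seen, rose by moderate amounts with little spread. Pla2g6, a calcium-independent phospholipase, lay at 8.0 to 8.52 without a compound and at 9.15 to 9.62 with one, a rise of 1.04 (SE 0.08, adjusted p = 4e-07). Cisd3, a mitochondrial iron-sulfur protein, lay at 7.94 to 8.16 and at 8.72 to 9.0, a rise of 0.83 (SE 0.06, adjusted p = 4e-07). Alpl, alkaline phosphatase, lay at 7.37 to 7.97 and at 8.55 to 9.41, a rise of 1.28 (SE 0.11, adjusted p = 1.44e-06). None of the 3 overlapped between the groups, and in Pla2g6 and Cisd3 the gap between the groups was wider than the range of the controls. Slc18a1, a vesicular amine transporter, rose by 1.17 (adjusted p = 3.89e-06), Abhd6, a monoacylglycerol lipase, by 1.12 (adjusted p = 3.92e-05) and Mdh2, the mitochondrial malate dehydrogenase, by 0.59 (adjusted p = 0.000109).

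Several genes with a symbol fell without overlap between the groups. Ip6k2, an inositol phosphate kinase, lay at 7.04 to 7.69 without a compound and at 6.11 to 6.77 with one, a fall of 0.83 (SE 0.11, adjusted p = 0.000138). Ptma, prothymosin alpha, lay at 10.87 to 11.17 and at 10.13 to 10.58, a fall of 0.70 (SE 0.07, adjusted p = 1.6e-05). Cldn1, a tight junction claudin, fell by 0.65 (adjusted p = 0.000443) and Cdo1, which begins cysteine breakdown, by 0.64 (adjusted p = 0.002). The pseudogene Cyp2d37-ps fell by 0.63 (adjusted p = 0.000117), and signal from other Cyp2d copies on its probe cannot be told apart. Serpina12, the secreted inhibitor vaspin, fell by 1.30 (SE 0.24, adjusted p = 0.00311), and each exposed liver lay below every control of its diet. Tsc22d3, a glucocorticoid-induced leucine zipper, fell by 1.0 (SE 0.15, adjusted p = 0.000349) and Noct, a clock-linked phosphatase, by 1.0 (SE 0.22, adjusted p = 0.012). The probe for Vmn1r127, a pheromone receptor gene, fell by 1.32 (adjusted p = 0.00461) at levels of 3.69 to 7.06, some below the median of all probes. Urad, an enzyme of urate breakdown, differed by -1.01 (adjusted p = 0.037) and Akr1c20, a steroid reductase, by -0.90 (adjusted p = 0.0481), and these calls were lost with any of 8 and any of 12 samples left out. For Ptcd3, a mitochondrial ribosome-associated protein, the brighter probe fell by 1.07 (adjusted p = 0.0176, or 0.0585 without low-fat control 2) and a dimmer probe rose by 0.40 (adjusted p = 0.00782), so the 2 probes of this gene disagree in direction.

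A few mitochondrial, proteasome and replication genes passed the test, each by a small amount. Of 26 oxidative phosphorylation genes 6 rose and 0 fell, and the list's median was 0.09. Atp5a1, an ATP synthase subunit, rose by 0.28 (SE 0.06, adjusted p = 0.00847) and without overlap. Sdhc, of complex II, rose by 0.39 (adjusted p = 0.005), and Uqcrc1, of complex III, by 0.47 (adjusted p = 0.0178, lost without low-fat control 1 or 3, up to 0.0545). Of 26 proteasome subunits 3 rose, against 3.83% of all genes, and 25 had a difference above 0, against a median of -0.01 over all probes. Psmb2 rose by 0.44 (adjusted p = 0.0132), while the calls of Psmb6 and Psmd2, at 0.31 and 0.30, were lost with any of 15 and any of 12 samples left out. Without low-fat PFOS replicate 3 and high-fat PFNA replicate 3, 4 oxidative phosphorylation genes and 1 proteasome gene rose.

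Of 23 cell cycle genes 4 rose and 0 fell. Mcm4, a subunit of the replication helicase, rose from 4.82 to 5.35 in controls to 5.28 to 6.14 in exposed livers, by 0.57 (SE 0.11, adjusted p = 0.00453). Rrm1, ribonucleotide reductase, rose by 0.51 (adjusted p = 0.0121), with each exposed liver above every control of its diet, and Mcm7 rose by 0.42 (adjusted p = 0.0137). Mcm2 rose by 0.53 (adjusted p = 0.0177), a call lost without any 1 low-fat control (up to 0.0528). Mki67, the proliferation marker, differed by 0.16 (SE 0.22, adjusted p = 0.762) and Ccnd1, cyclin D1, by 0.14 (SE 0.16, adjusted p = 0.713), both named after their values were seen. Of 12 p53 and growth control genes 2 rose and 1 fell. Plk2, a polo-like kinase, rose from 5.49 to 5.77 in controls to 6.31 to 7.06 in exposed livers, by 0.93 (SE 0.10, adjusted p = 1.17e-05). Trp53inp1 fell by 0.80 (adjusted p = 0.0193, or 0.0639 without low-fat control 3).

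In the circadian list 1 of 17 genes rose, Bhlhe41 by 0.57 (adjusted p = 0.0252), and 1 fell, Clock by 0.30 (adjusted p = 0.0411). Bhlhe41 lost its call without low-fat control 1 or 2 or high-fat control 2 or 3 (up to 0.0679), and Clock with any of 12 samples left out. In the zonation list, which marks position along the liver lobule, 1 of 18 rose and 3 fell. Znrf3, a ligase that limits Wnt signalling, fell by 0.37 (SE 0.08, adjusted p = 0.00766). Lgr5, a pericentral Wnt receptor, fell by 0.69 (adjusted p = 0.0223), a call lost without low-fat control 3, high-fat control 2 or high-fat control 3 (up to 0.062), and a dim second probe differed by -0.04 (adjusted p = 0.855). The pericentral genes Glul and Axin2, named after their values were seen, differed by -0.18 (adjusted p = 0.226) and 0.06 (adjusted p = 0.824). Of 14 genes for heme and electron supply to P450 enzymes 2 rose and 1 fell. Urod, an enzyme of heme synthesis, fell by 0.42 (SE 0.08, adjusted p = 0.00541). Slc48a1, a heme transporter, rose by 0.35 (adjusted p = 0.0264), lost without low-fat control 1 or 3 or high-fat control 3 (up to 0.0795), and Cyb5b, a cytochrome b5, by 0.44 (adjusted p = 0.0366), lost with any of 9 samples left out.

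**Figure D3:**
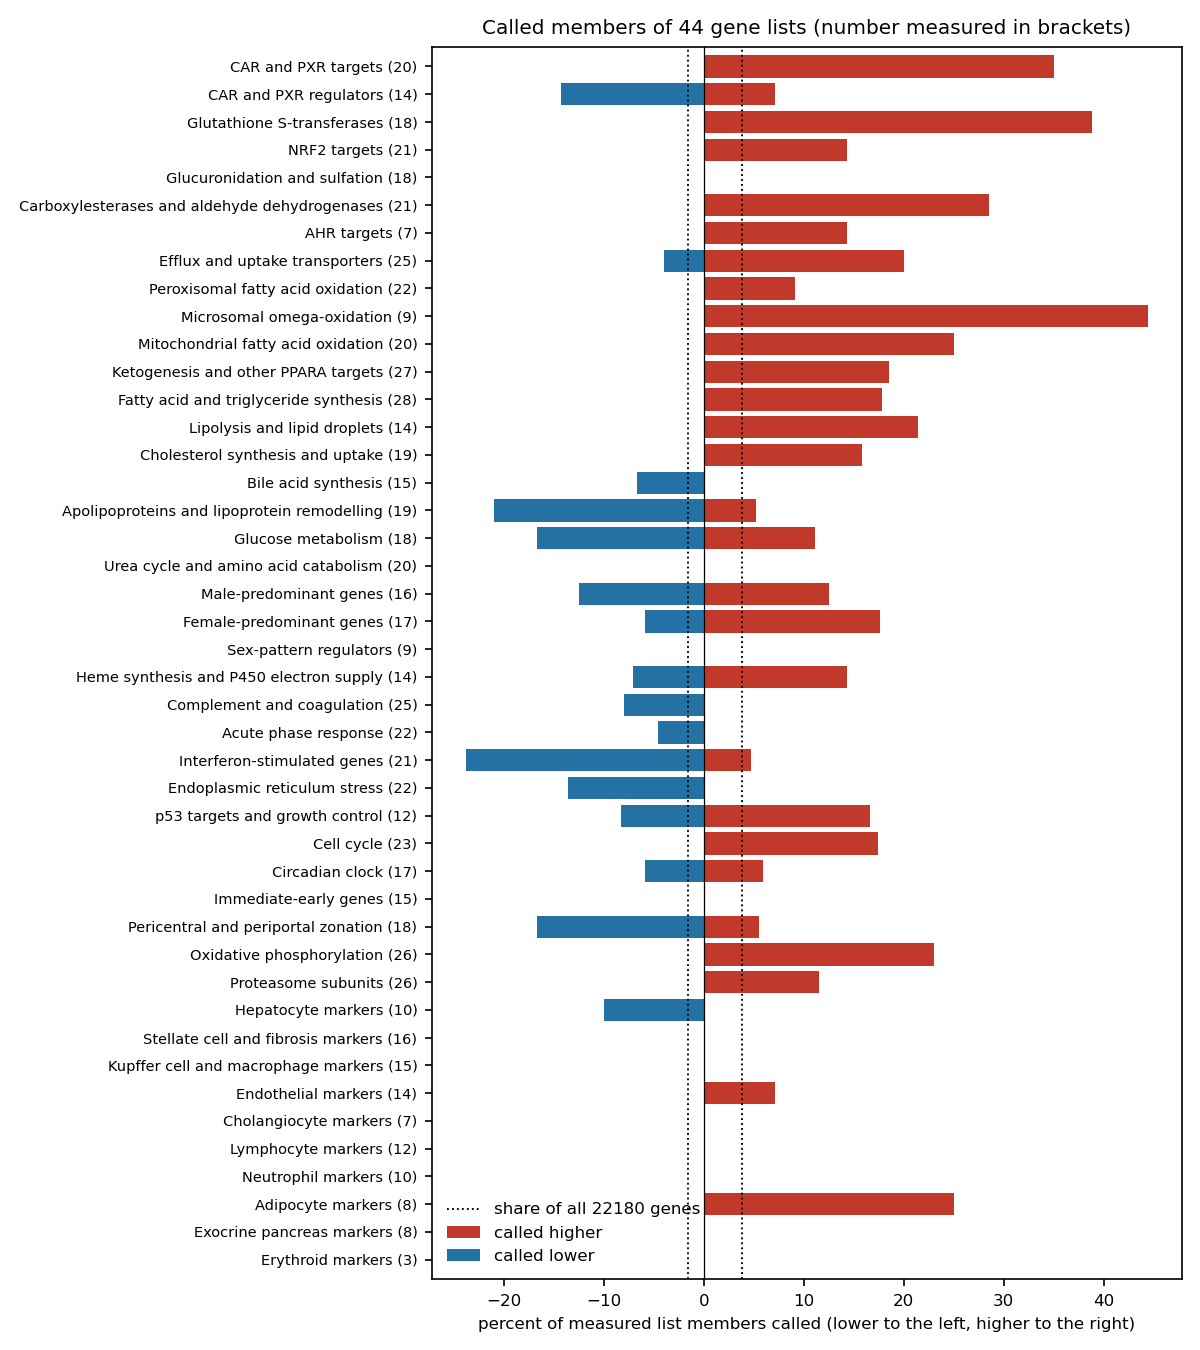
Percent of the measured members of each of 44 gene lists that were called higher (right) or lower (left), with the number measured in brackets and the share of all 22180 genes as dotted lines (3.83% higher, 1.57% lower). Microsomal omega-oxidation, glutathione S-transferases and CAR and PXR targets reach farthest to the right and interferon-stimulated genes farthest to the left.

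Markers of other liver cells were measured beside these results. In whole tissue, fewer cells of a type and less RNA per cell cannot be told apart. All 14 endothelial markers had a difference above 0, with a median of 0.31, against -0.01 over all probes. Of these markers 1 was called, Oit3, by 0.56 (adjusted p = 0.0248, lost without low-fat control 1 or 2 or high-fat control 3, up to 0.0775). By exposure their median was 0.36 in low-fat PFOS, 0.52 in low-fat PFNA, -0.01 in high-fat PFOS and 0.07 in high-fat PFNA. Their summed level was 105.4 to 112.9 in controls and 108.5 to 116.5 in exposed livers. Kupffer cell and macrophage markers gave 0 calls of 15, with summed levels of 97.5 to 114.4 and 103.6 to 114.1, and stellate cell and fibrosis markers 0 of 16, with 108.3 to 125.2 and 109.6 to 116.7. In the same order of exposures the median was 0.47, 0.56, -0.08 and -0.06 for the macrophage markers and 0.26, 0.18, -0.34 and -0.21 for the stellate markers, so these lists lay on opposite sides of 0 on the diets. The high-fat controls were spread widely. Their summed stellate levels were 125.2, 111.8 and 114.2 in replicates 1, 2 and 3, and their macrophage levels 114.4, 110.3 and 97.5. Whether these medians differ between the diets was not tested. Vsig4 and Cd68, macrophage genes, differed by 0.61 (adjusted p = 0.133) and 0.54 (adjusted p = 0.202), and Acta2, of stellate cells, by 0.41 (adjusted p = 0.262). Cholangiocyte, lymphocyte, neutrophil, exocrine pancreas and erythroid markers also gave 0 calls. Only 3 of 10 erythroid markers were measured, none of them a hemoglobin gene. Mean levels lay below the median of all probes in 4 of 7 cholangiocyte, 7 of 12 lymphocyte, 8 of 10 neutrophil and 5 of 8 pancreas markers. The 0 calls in these lists therefore say little about those cells. Among 10 hepatocyte markers 1 was called, Apoa1, and Alb differed by -0.03 (adjusted p = 0.797). The part of these marker levels in the differences above was not tested.

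Adipocyte markers had 2 calls of 8, Lipe and Cidec, which also stand in the lipid droplet and PPARA lists. Their summed level was 38.6 to 41.0 in controls and 39.4 to 45.8 in exposed livers, and its 5 highest values, 44.8 to 45.8, were the 3 high-fat PFOS livers, low-fat PFOS replicate 3 and high-fat PFNA replicate 3. Adipoq, which defines adipocytes, lay at 2.11 to 2.40 in controls and 2.07 to 2.84 in exposed livers, among the dimmest probes, and Lep, Plin1 and Retn differed by 0.13, -0.20 and -0.07 with adjusted p of 0.491 or more for Lep and Retn and 0.258 for Plin1.

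Whether the difference was the same on both diets was tested as an interaction. Exposure and diet had 0 called interactions in limma (smallest adjusted p = 0.469), with 2243 probes at an unadjusted p under 0.05. Within the diets, exposed livers differed from their own controls in 531 probes (1.54%) on low fat, of which 333 (0.966%) were higher and 198 (0.574%) lower. On high fat they differed in 346 probes (1.0%), of which 200 (0.580%) were higher and 146 (0.424%) lower. Centring each array on its median moved the higher share of calls from 62.7% to 81.0% on the low-fat diet (585 higher, 137 lower) and from 57.8% to 69.7% on the high-fat diet (271 higher, 118 lower). These counts depended on single samples. The low-fat count ran from 147 without low-fat control 2 to 945 without low-fat PFOS replicate 3, and moved by more than 1.5 times on leaving out any of the 9 low-fat samples. The high-fat count ran from 99 without high-fat control 3 to 522 without low-fat PFOS replicate 3, and moved that much also without high-fat control 1 (133) or 2 (108), high-fat PFOS replicate 2 (153) or 3 (212) or high-fat PFNA replicate 3 (215).

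The low-fat and high-fat differences share no samples, but both come from 1 fit with 1 estimate of the spread per probe, so their p-values are not independent. Of the probes called on either diet 131 were called on both, 24.7% of the low-fat and 37.9% of the high-fat calls, and all 131 moved the same way, 88 up and 43 down. Of the low-fat calls 336 (63.3%) had an unadjusted p under 0.05 in the same direction on the high-fat diet, where 12.8% of all probes had such a p in either direction. Of the high-fat calls 225 (65.0%) did so on the low-fat diet, where 14.8% of all probes had such a p. Across all 34472 probes, which are not independent of one another, the 2 differences had a Pearson correlation of 0.41, and across the 17205 probes above the overall median signal 0.53.

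Genes called on both diets, named after their values were seen, included Cyp2b10, with 5.46 on the low-fat and 4.83 on the high-fat diet, Slc35f2, with 1.84 and 2.17, and Cyp4a12a, with 1.05 and 1.34. Cyp3a11 gave 1.16 and 1.11, Pltp 1.45 and 1.36, and Igtp -0.71 and -1.02.

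The genes with the smallest interaction p among those called in the pooled comparison are given here, although none passed the adjustment. This choice leaves out genes whose differences on the diets cancel in the pooled value. Cyp2c39, not called in the pooled comparison, differed by 0.40 on the low-fat and -0.85 on the high-fat diet, an interaction of -1.25 (adjusted p = 0.640). Cyp4a12b rose by 0.84 on the low-fat and 2.03 on the high-fat diet, an interaction of 1.19 (95% confidence interval 0.73 to 1.65, adjusted p = 0.469). Exposed livers were at one level on both diets, while the high-fat controls were lower than the low-fat controls. Cyp2b9 rose by 2.38 on the low-fat diet and differed by 0.19 (adjusted p = 0.881) on the high-fat diet, an interaction of -2.19 (interval -3.21 to -1.17, adjusted p = 0.487). Cyp17a1 fell by 1.99 on the low-fat diet and differed by -0.46 (adjusted p = 0.502) on the high-fat diet, an interaction of 1.53 (interval 0.72 to 2.34, adjusted p = 0.591). For Cyp2b9 and Cyp17a1 the exposed levels on the diets were also nearer to each other than the control levels were. Aox1, an aldehyde oxidase, rose by 0.98 on the low-fat diet and differed by 0.27 on the high-fat diet, and Abcc3 gave 0.93 and 0.35, with interactions of -0.71 and -0.58 (adjusted p = 0.487 and 0.632). Smad9, a transducer of bone morphogenetic protein signals, differed by 0.34 and rose by 1.52 on the high-fat diet, and Prr5 gave 0.07 and 0.63, with interactions of 1.17 and 0.56 (adjusted p = 0.632 for both). The pooled call of Prr5 was lost with any of 11 samples left out.

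**Figure D4:**
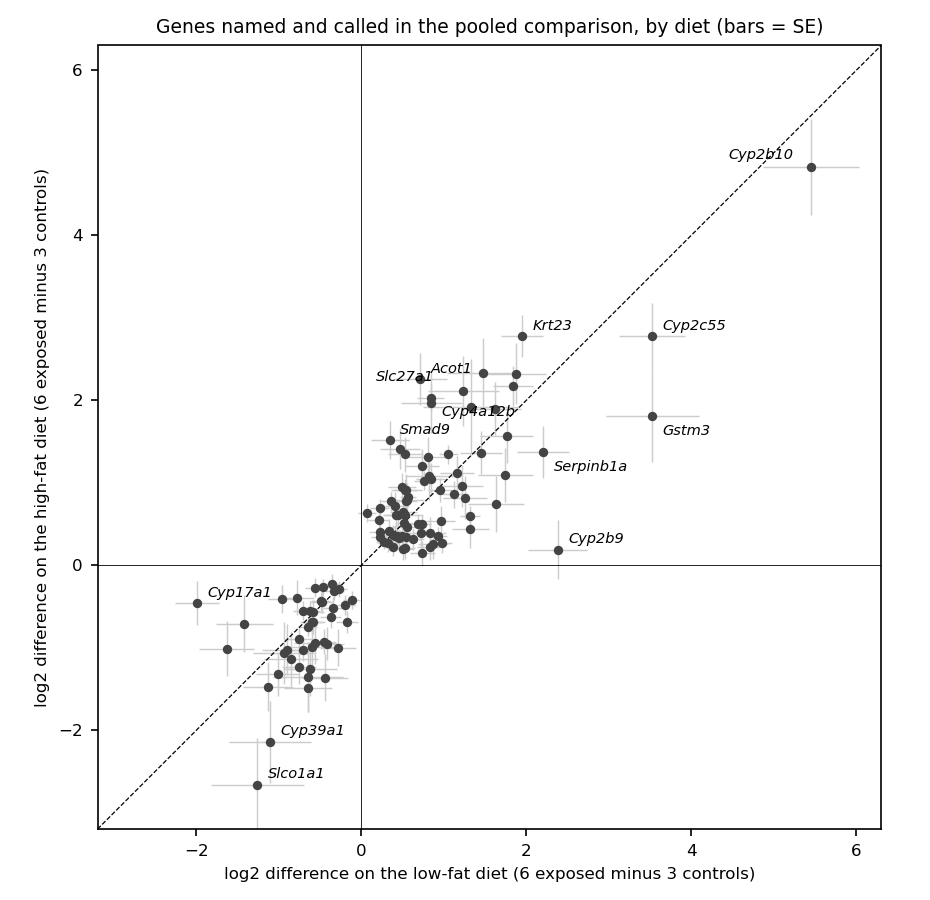
Log2 difference between exposed livers and controls on the low-fat diet (x axis) and on the high-fat diet (y axis) for the named genes called in the pooled comparison, with bars of 1 SE and the line of equal difference dashed. Cyp2b10 lies near the line, Cyp2b9 and Cyp17a1 lie toward the low-fat side, and Acot1, Cyp4a12b and Smad9 toward the high-fat side.

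PFNA and PFOS were compared directly over both diets, 1 pair of compounds with 6 livers each, as fed, with the doses unknown here. In limma 0 probes were called (smallest adjusted p = 0.567), with 2762 at an unadjusted p under 0.05. For Cyp2b10 PFNA minus PFOS was 0.69 with a 95% confidence interval of -0.27 to 1.66, for Cyp2c55 0.47 (-0.22 to 1.15) and for Gstm3 0.29 (-0.74 to 1.33). The intervals for Slc35f2, -0.43 to 0.39, and for Cyp4a12a, -0.20 to 0.21, were narrow beside the rises of 2.01 and 1.20 from no compound. For these genes a difference between the acids was not detected, and the intervals bound its size.

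Among genes called in the pooled comparison, those with the smallest p between the compounds were mostly further from control under PFOS. The livers high on the first principal component were unevenly split between the compounds. They were all high-fat PFOS livers and low-fat PFOS replicate 3, but of the PFNA livers only high-fat PFNA replicate 3. Acot2 and Slco1a1 were farthest from control in these same livers. The part of this split in the differences between the compounds was not tested. Ctse differed by -1.20 (PFNA minus PFOS, interval -1.82 to -0.57), Acot2 by -1.11 (-1.79 to -0.43), Flacc1 by -0.77 (-1.20 to -0.33), Acot6 by -0.65 (-1.06 to -0.25), St3gal6 by -0.48 (-0.78 to -0.19) and Car9 by -0.40 (-0.62 to -0.17). Slco1a1 differed by 1.69 (0.64 to 2.73), being lower under PFOS, and Tbc1d7 by 0.50 (0.18 to 0.81), being higher under PFNA. All 8 had an adjusted p of 0.567. Outside that choice, Cyp2c37 and Cyp2c54, not called in the pooled comparison, were higher under PFNA, by 1.04 and 0.78 (adjusted p = 0.567 for both). Livers of a compound were not alike here. Low-fat PFOS replicates 1 and 2 were at 11.39 and 11.77 for Cyp2c37 and at 11.56 and 11.92 for Cyp2c54. High-fat PFNA replicate 3 was at 10.26 and 10.83, below every other PFNA liver. A second, dim probe of Car9 differed by -0.10 between exposed livers and controls (adjusted p = 0.638). The pooled calls of St3gal6 and Tbc1d7 were lost with any of 6 and any of 14 samples left out.

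Against the control of its diet, low-fat PFOS gave 134 called probes (0.389%), low-fat PFNA 195 (0.566%), high-fat PFOS 352 (1.02%) and high-fat PFNA 39 (0.113%), where the 2 comparisons on a diet share their controls. Cyp2b10 differed by 5.20 in low-fat PFOS, 5.71 in low-fat PFNA, 4.39 in high-fat PFOS and 5.26 in high-fat PFNA. Acot1 gave 1.02, 0.41, 2.71 and 1.80 in the same order, and Slco1a1 -1.74, -0.78, -3.87 and -1.45. Acot1 and Slco1a1 stood farthest from control in high-fat PFOS, and the differences between exposures were not tested here. With the 6 PFOS livers alone against the 6 controls 848 probes were called, and with the 6 PFNA livers alone 821. Each of these fits has fewer samples, and of the 119 named genes called with all livers 33 lost the call with PFOS alone and 53 with PFNA alone. Gstt3 and Cyp17a1 were among the former, and Slc27a1, Serpina1e, Cd36 and Nqo1 among the latter.

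**Figure D5:**
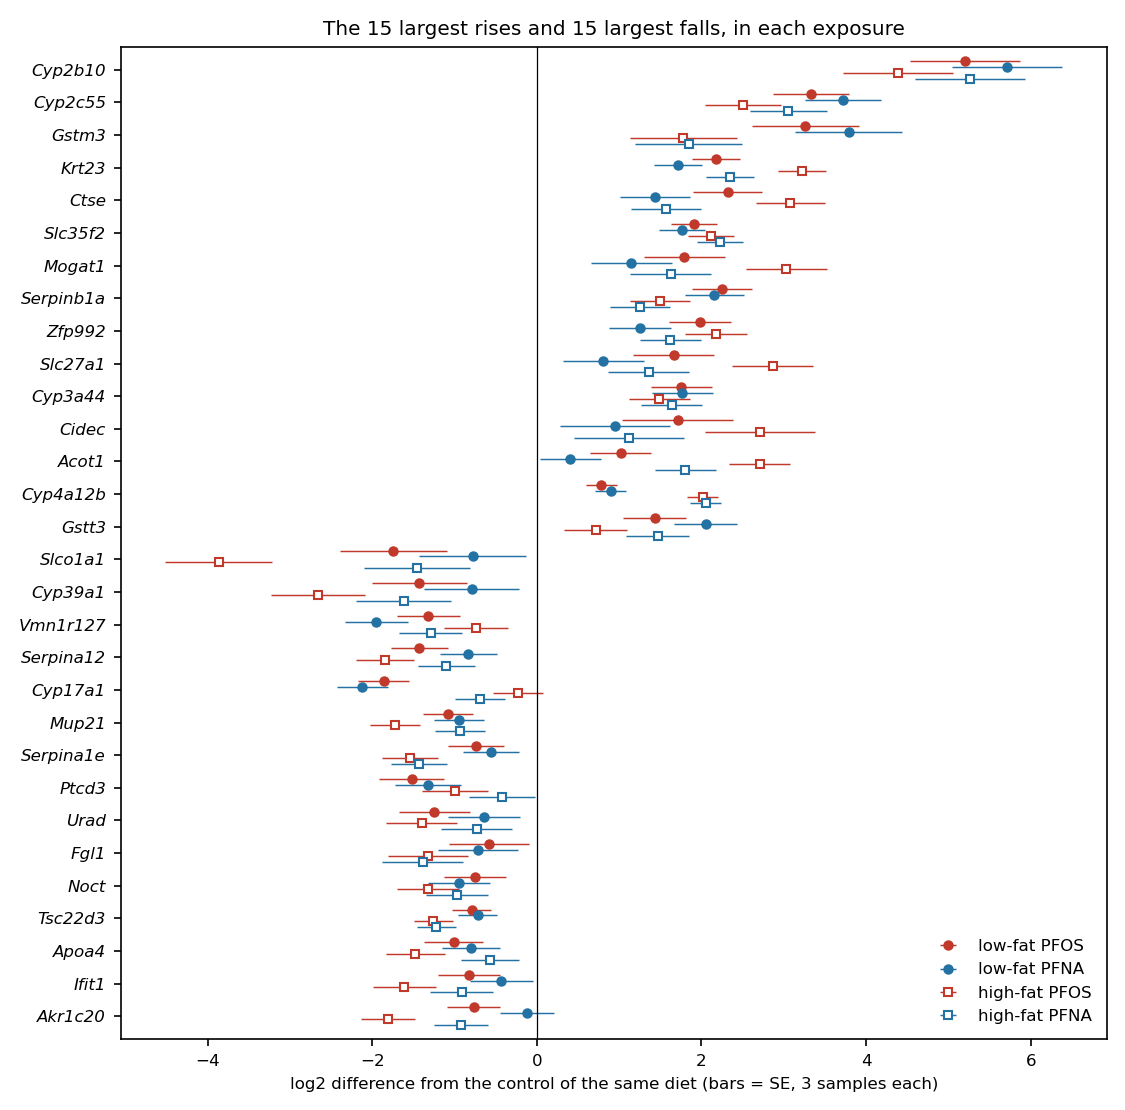
Log2 difference of each exposure from the control of its diet, with bars of 1 SE and 3 livers per group, for the 15 largest rises and 15 largest falls by the naming rule. The 4 points of Cyp2b10 lie between 4.39 and 5.71, and those of Slco1a1 between -3.87 and -0.78.

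Probes without a gene symbol were 9137 of the 34472 tested and made up 342 of the 1691 calls, 70 higher and 272 lower. They held the largest falls, up to -2.77 (adjusted p = 0.000422). Of 506 probes for microRNA genes 4 were higher and 12 lower, and of 81 probes for small nucleolar RNA genes 0 were higher and 10 lower. Over all probes 2.90% were higher and 2.01% lower, so the share of microRNA falls was near that of all probes.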

How the data were processed

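Total RNA from 18 mouse livers, extracted with Trizol and labelled with biotin per the labels' protocols, was measured on 1 array each. The values analysed are the table the authors deposited for the series, 1 log2 signal per probe and array. The log base is read from the values, since the labels do not name it. The submitters' processing notes name the Transcriptome Analysis Console; the sources used here give neither its normalization settings nor any probe filter. No further scaling was done. The number of arrays limits the precision.

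Probe symbols came from the platform annotation: 23521 probes had 1 symbol, 1814 several and 9137 none, and the probe with the brightest mean stood for a gene with several, giving 22180 genes. limma 3.58.1 in R 4.3.3 was fitted to all 34472 probes with exposure and diet as additive terms. A fit with 1 mean per group gave the contrasts within diets and each exposure against its control. The interaction came from a fit with exposure, diet and their product. PFNA against PFOS came from a fit with compound and diet as additive terms. Adjusted p-values are Benjamini-Hochberg over all probes. Tested on simulated data, the fit recovered 59.7%, 98.7% and 100.0% of changes of 0.5, 1 and 2 log2 units. The mean number of false calls per run was 6.0, 10.3 and 11.7. The simulated noise was normal and independent, with no diet effect, and all exposed samples shifted alike in a small share of probes. Recovery in the real data, where exposed livers differ in level, may not be the same.

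The 44 lists name 781 genes, of which 696 were measured, and 51 genes stand in several lists. The members, lists and named genes were chosen with earlier results of these data known. The rule for named genes took the 15 largest called rises and falls, up to 4 called members of each list (or the 2 largest differences where none was called), the 8 smallest p for the interaction and for PFNA against PFOS among called genes, and up to 10 called genes each way with groups apart; predicted models and small RNAs were left out. Other genes are said to be chosen after their values were seen, except the members named beside a list count as not called. Replicates are labelled as biological, and p-values measure the spread between these samples. Alternatives were quantile normalization, centring, a signal filter, trend and robust settings, array weights, a replicate block, each sample left out in turn, 2 samples left out together, 1 compound alone, no diet term and equal group weights; leaving out each exposed group was added after seeing the data. Promoters are RefSeq sequences of GRCm38.p6.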

Additional observations from a re-analysis of the deposited data

Results flagged for a closer look

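In 4 of the 141 named genes 1 of the 6 livers without a compound stood far from the other 5, with a gap over 0.625 of the range, Dixon's limit for 6 samples. Chance gives such a gap in about 1 group in 20. Cidec, the lipid droplet protein, was at 9.07 in high-fat control 1 (gap 0.743 of the range), and Sox9, a cholangiocyte marker, was at 6.63 in the same liver (0.670). Mup21, the urinary protein gene, was at 7.90 in low-fat control 1 (0.829), and Ptcd3, the gene whose probes disagree, was at 9.93 in low-fat control 2 (0.873).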

How the results depend on the processing

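The pooled count of 1691 kept within 1.5 times under quantile normalization (1584), centring (2013), the signal filter (2256), trend and robust settings (1896), array weights (1701), equal group weights (1726), no diet term (1597) and each left-out sample (1203 without low-fat control 3 to 1798 without low-fat PFOS replicate 3). It fell to 848 with PFOS livers and controls only, 821 with PFNA livers and controls only, 1038 without the low-fat PFOS group and 964 without the low-fat PFNA group, all fits with fewer samples. The low-fat count of 531 moved to 968 under the signal filter, which tests fewer probes, to 834 with array weights and to 1177 without low-fat PFOS replicate 3 and high-fat PFNA replicate 3 together, and the high-fat count of 346 to 614 under the filter; the cause was not tested. With single samples left out the low-fat count ran from 147 to 945 and the high-fat count from 99 to 522. The interaction and PFNA against PFOS had 0 calls in all settings run. Ugt2b1, not called at -0.35, turned to 0.042 with PFNA livers and controls only, the cause being untested. Of 119 named called genes 78 kept the call without each sample in turn and 50 in all 33 alternatives. Quantile normalization ended 9 calls (Cidec, Acadl, Pdk2, Hsd17b2, Cyb5b, Cyc1, Psmb6, Prr5, Tbc1d7) and centring 6 (Fgl1, Akr1c20, Rxra, Fga, Calr, Clock).

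Replicate numbers do not pair the samples: same-numbered samples deviated with a mean correlation of 0.016, over 0.1 in 3 of 45 pairs, and 6 of 18 samples correlated best with their own number. With the replicate block 1658 probes were called, 513 on the low-fat and 380 on the high-fat diet, and 6 named calls were lost. Dim probes carry few calls, and there signal over background limits what can be seen.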
